A study of Mus musculus with 8 samples.

Results

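The heat shock and folding chaperones described here are 10 mouse genes, Hspa1a, Hspa1b, Hspa8, Hspa5, Hsp90aa1, Hsp90ab1, Hsph1, Dnajb1, Hspd1 and Hspe1. They were chosen by name from the 55291 gene symbols of each count table. All 10 were among the 16371 genes that passed the expression filter of edgeR, the program used for testing. RNA-seq had been performed to ask how loss of DHX35, an RNA helicase, or of GPATCH1, its G-patch partner, affects splicing fidelity. The mouse embryonic stem cells (mESCs), labelled E14, carried the FKBP12 F36V degron on DHX35 (genotype DHX35-dTAG) or on GPATCH1 (GPATCH1-dTAG), and were cultured, as the labels give it, on gelatin in serum medium with PD0325901, CHIR99021 and LIF. Each line received DMSO, the solvent, or 200 nM dTAG-13, a compound that brings the tagged protein to a ubiquitin ligase, for 4 h; each of these 4 groups has 2 libraries. The growth protocol speaks of R1 rather than E14 cells, an untagged line treated with dTAG-13 is not analysed here, and edited lines grown from picked colonies can differ from each other apart from the tag. Nothing in the labels says whether the libraries of a group came from separate cultures, so the p-values measure the spread between libraries, which may be technical.

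Chaperones bind unfolded or partly folded proteins and, mostly with energy from ATP, help them to fold, to cross membranes or to be handed on for degradation. Some members of each family are made at all times, whereas others are switched on within minutes to hours by the heat shock factor HSF1 when misfolded protein accumulates in the cytosol, or by the unfolded protein response when it accumulates in the endoplasmic reticulum (ER). The mRNAs of the inducible genes are therefore widely used as a readout of protein folding stress.

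The total of counts per library was between 12014203 and 14994173, and the chaperones together took 0.824% to 1.07% of it. Levels are given as CPM, the count scaled to a common library size after TMM normalization, a correction for libraries in which a few genes take many reads. That correction mattered here, since the 2 genes with the highest counts took 1.27% to 20.9% of a library. DMSO replicate 1 of DHX35-dTAG cells stood apart, with a mean correlation of 0.976 with the other libraries, against 0.988 to 0.990 for those, and with 0.272% of its counts on mitochondrially encoded mRNAs, against 0.758% to 1.13%. Values for Hspa8, Hspa5, Hsph1, Dnajb1 and the lists of partner genes that moved with this library are given with and without it. Without it, DMSO replicate 2 is the only untreated library of DHX35-dTAG cells, and all such values for DHX35 share it as their control. Standard errors from all 8 libraries draw on the spread of replicate 1 too. The 8 pluripotency markers summed to between 5180 and 5830 CPM in every library, and 4 primitive endoderm, 4 fibroblast and 7 early differentiation markers to at most 6.55, 5.76 and 23.3 CPM. The degron acts on the protein, so the target's mRNA does not check the treatment: Dhx35 was at 72.3 to 80.4 CPM in DMSO and 79.5 to 84.8 in dTAG-13 in its own line, and Gpatch1 at 6.90 to 7.31 and 7.06 to 7.20. Gpatch1 was at 23.2 to 25.6 CPM in DHX35-dTAG cells.

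None of the 10 chaperones passed an adjusted p of 0.05 (edgeR's quasi-likelihood test, Benjamini-Hochberg over 16371 genes) after depletion of DHX35 or of GPATCH1, in the difference between both responses, in the joint test of dTAG-13 over both lines, or between the lines in DMSO. The same count of 0 was obtained with DESeq2 in all 5 comparisons. Over all genes tested the share called by edgeR was 0% in the first 4 comparisons and 0.0916% between the lines. The share called by DESeq2 was 0.00611%, 0%, 0.055%, 0.0244% and 0.287% in the same order (1, 0, 9, 4 and 47 genes). A count of 0 among 10 genes is therefore no result about chaperones. When edgeR was fitted to the libraries of 1 line only, it called 1 of 15725 genes for DHX35 and 127 of 15815 for GPATCH1. Neither fit called a chaperone, but the 0% for GPATCH1 thus depends on which libraries are fitted. At an unadjusted p under 0.05 in edgeR there were 0 chaperones for DHX35 (background 5.39% of genes), 1 for GPATCH1 (2.97%), 0 for the difference (3.91%), 1 for both lines together (3.59%) and 1 between the lines (12.9%), where each of the 3 was Hsph1. DESeq2 gave 1, 0, 0, 1 and 1 in the same order, against 2.88%, 0.702%, 1.52%, 1.45% and 7.88% of all genes, and these were Hspa8 for DHX35, Hsph1 for both lines and Hspa8 between the lines. The median log2 fold change of the chaperones was 0.07 after DHX35 depletion and 0.06 after GPATCH1 depletion, beside −0.01 and 0.00 over all genes.

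With all 8 libraries, the highest upper limit of a chaperone's 95% interval, that of Hspa1a, was 1.99-fold for DHX35 and 1.82-fold for GPATCH1. When libraries were left out singly, the highest upper limit ran from 1.9-fold to 2.66-fold for DHX35 (Hspa1a without dTAG-13 replicate 1 of that line), where Hspa8 also passed 2-fold in some fits, and from 1.68-fold to 2.38-fold for GPATCH1 (Hspa1a without dTAG-13 replicate 2). The intervals of Hsp90ab1 were much narrower, at 0.905 to 1.15-fold after DHX35 depletion and 0.910 to 1.16-fold after GPATCH1 depletion.

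**Figure D1:**
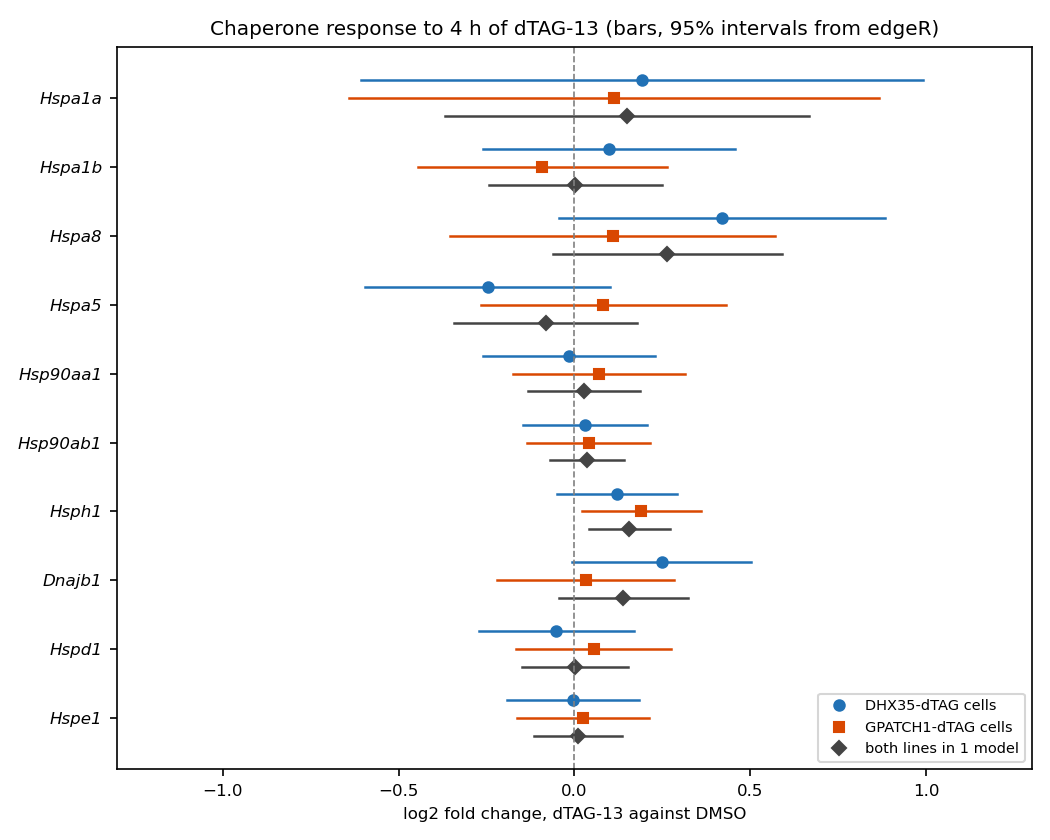
Log2 fold change of each chaperone in dTAG-13 against DMSO, with 95% intervals from edgeR, for DHX35-dTAG cells (blue circles), GPATCH1-dTAG cells (orange squares) and both lines in 1 model (grey diamonds). Every interval crosses 0 except those of Hsph1 in GPATCH1-dTAG cells and over both lines, and Hspa1a has the widest intervals.

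To compare genes with each other, levels were divided by the length of the longest coding transcript, which is 774 bases for Hspe1 and 3802 for Hsph1. On this scale of CPM per kb, Hsp90ab1 was highest, with a mean over the 8 libraries of 1333 (1280 to 1385). Hsp90aa1 (764, range 658 to 845) and Hspa8 (764, range 444 to 854) followed and overlapped, so their order is not set by these data. Hspd1 was at 372, Hspe1 at 262 and Hspa5 at 138, and none of these ranges overlapped with its neighbour's. Hsph1, at 39.1, and Dnajb1, at 18.1, were the lowest of the genes with a clear signal. The heat-inducible HSP70 genes Hspa1b (2.77, range 2.57 to 3.11) and Hspa1a (0.658, range 0.461 to 0.865) lay far below all others. Of the windows of 150 bases, the read length, along their transcripts, 55.4% for Hspa8 and 36.2% for Hsp90aa1 also occurred in other genes, and none for Hsp90ab1. The levels of Hspa8 and Hsp90aa1, and their place below Hsp90ab1, thus depend on how such reads were counted, which is not given in the sources used here.

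**Figure D2:**
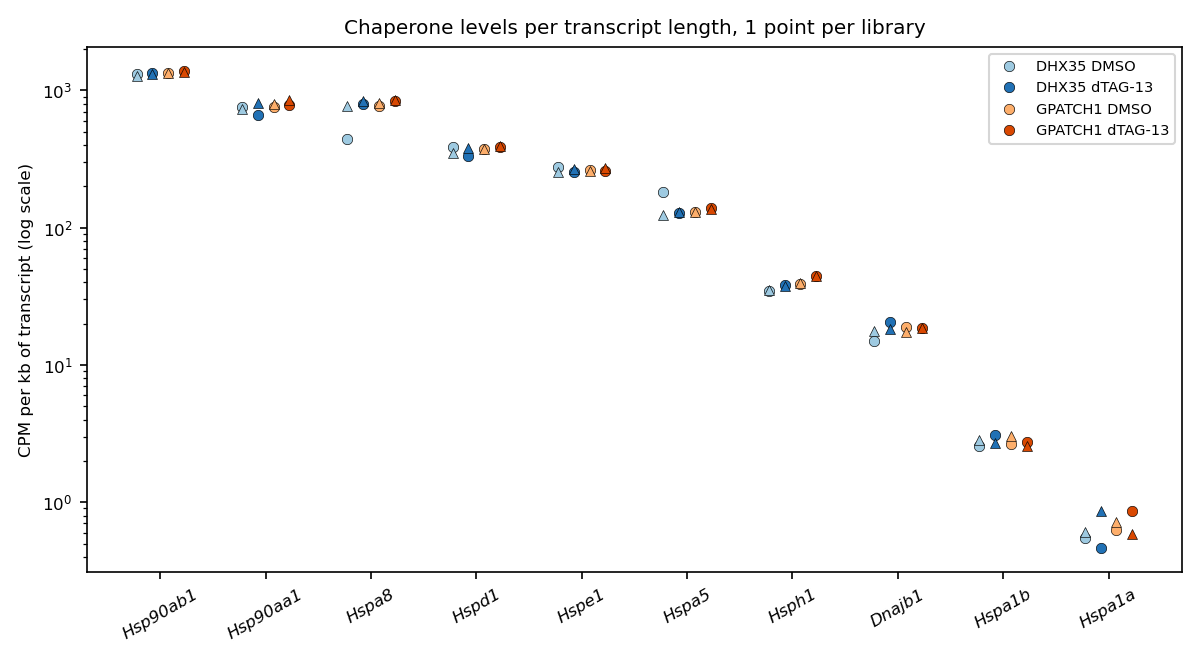
CPM per kb of the longest coding transcript (log scale) for each chaperone, ordered by its mean, with 1 point per library (circle, replicate 1, and triangle, replicate 2), coloured by group. The order of the genes is the same in all 4 groups apart from Hsp90aa1 and Hspa8, and the lowest Hspa8 point, at 444, is DMSO replicate 1 of DHX35-dTAG cells.

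Hspa1a and Hspa1b encode the same stress-induced HSP70, whose mRNA is the classical readout of HSF1. Hspa1a (ENSMUSG00000091971.3, chr17:34969190-34972156, minus strand, GRCm38) and Hspa1b (ENSMUSG00000090877.3, chr17:34956436-34959238, minus strand) each have 1 exon. Their promoters are shown because these letters are where HSF1 is known to act. The RefSeq table used (GRCm38.p6) holds promoters for 7 of the 10 chaperones, as windows of 300 bases around the start of transcription, from which positions are counted. The heat shock element is built from inverted repeats of GAA, and its core was searched as TTCNNGAA or GAANNTTC, both of which read the same on either strand. The windows of Hspa1a (chr17:34972242-34972371) and Hspa1b (chr17:34959324-34959453), both on the minus strand, end at position −86; capitals mark the GAA and TTC of the core and the 2 bases in this window at which the pair differs.
Hspa1a promoter: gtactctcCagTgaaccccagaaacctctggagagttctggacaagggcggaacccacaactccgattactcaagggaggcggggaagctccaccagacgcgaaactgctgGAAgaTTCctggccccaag
Hspa1b promoter: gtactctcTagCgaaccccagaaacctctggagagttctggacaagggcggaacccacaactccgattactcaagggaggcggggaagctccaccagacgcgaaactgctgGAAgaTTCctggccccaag
Over the whole window of 300 bases the promoters differed at 4 positions, which leaves them 98.7% identical, and each held 1 core, whose first base is at −104. Of all 32851 promoters in the table, 15.1% held at least 1 core of either form (8.52% TTCNNGAA and 7.86% GAANNTTC).

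Hspa1a had 16 to 41 counts per library. In DHX35-dTAG cells its level was 1.63 and 1.80 CPM in the DMSO libraries and 1.37 and 2.57 in dTAG-13. In GPATCH1-dTAG cells it was 1.88 and 2.12 CPM in DMSO and 2.54 and 1.73 in dTAG-13. The dTAG-13 libraries lay on both sides of the DMSO libraries in each line. The log2 fold change was 0.19 (standard error 0.35) for DHX35 and 0.11 (0.33) for GPATCH1, with adjusted p from edgeR of 0.874 and 1. Hspa1b, with 85 to 124 counts, was at 7.24 and 7.91 CPM in DMSO and 8.72 and 7.52 in dTAG-13 in DHX35-dTAG cells, and at 7.38 and 8.58 in DMSO and 7.68 and 7.20 in dTAG-13 in GPATCH1-dTAG cells. Again the groups overlapped in both lines, and the log2 fold changes were 0.10 (0.16) and −0.09 (0.16), adjusted p 0.851 and 1 (edgeR).

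Reads of this pair can only be told apart in part. Of the windows of 150 bases along the Hspa1a transcript, 38.1% also occurred in Hspa1b, and 564 exon bases of Hspa1a overlapped Gm20481, an annotated gene on the opposite strand. Hspa1a made up 13.6% of the pair's counts in dTAG-13 replicate 1 of DHX35-dTAG cells (exact 95% interval 7.95% to 21.1%) and 25.4% in replicate 2 (17.7% to 34.4%), the extremes of the 8 libraries. These intervals cover counting error only, and they overlapped. The summed level was between 8.87 and 10.7 CPM, and as 1 feature the pair had a log2 fold change of 0.12 (adjusted p = 0.81, edgeR) after DHX35 depletion and −0.05 (adjusted p = 1) after GPATCH1 depletion.

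Hspa8 (ENSMUSG00000015656.17, chr9:40800984-40810087, plus strand) encodes HSC70, the constitutive cytosolic HSP70, which also takes clathrin off coated vesicles. In DHX35-dTAG cells it was at 1063 and 1852 CPM in DMSO and at 1890 and 2007 in dTAG-13. In GPATCH1-dTAG cells it was at 1828 and 1930 CPM in DMSO and at 2008 and 2045 in dTAG-13. Within each line both dTAG-13 libraries were above both DMSO libraries, and the value of 1063 lay far below the other 7, which ranged from 1828 to 2045. The log2 fold change for DHX35 was 0.42 (standard error 0.21, interval −0.04 to 0.88, adjusted p = 0.715, edgeR), and without DMSO replicate 1 of that line it was 0.08 (0.06, interval −0.06 to 0.21, adjusted p = 0.991). Within GPATCH1-dTAG cells it was 0.11 (standard error 0.20, adjusted p = 1), and 0.11 (0.05) without DMSO replicate 1 of DHX35-dTAG cells. The responses of the lines differed by −0.31 (0.29, adjusted p = 0.863), or by 0.04 (0.08) without that library. Over both lines the joint value was 0.26 (0.15, unadjusted p = 0.101, adjusted p = 0.963) with all libraries and 0.10 (0.03, unadjusted p = 0.0109, adjusted p = 0.59) without it. In bulk libraries, less of an mRNA per cell and fewer cells that make it cannot be told apart.

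Of the Hspa8 windows of 150 bases, 55.4% also occurred in other genes, most of them in the processed copy Gm15459 (48.7%), so its counts depend on how such reads were assigned. Its introns carry the small nucleolar RNAs Snord14c, Snord14d and Snord14e, of which 86, 86 and 90 bases overlap annotated Hspa8 exons.

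Dnajb1 (ENSMUSG00000005483.10, chr8:83608193-83612653, plus strand) encodes an HSP40 that delivers substrates to HSP70 and stimulates its ATPase, and is itself induced by HSF1. It was at 44.9 and 53.0 CPM in DMSO and 61.9 and 54.4 in dTAG-13 in DHX35-dTAG cells. In GPATCH1-dTAG cells it was at 56.6 and 52.4 CPM in DMSO and 55.8 and 55.8 in dTAG-13. Both dTAG-13 libraries were above both DMSO libraries in DHX35-dTAG cells, and the lowest of the 8 values was again DMSO replicate 1. The log2 fold change was 0.25 (standard error 0.11, unadjusted p = 0.0542, adjusted p = 0.715, edgeR) for DHX35, 0.14 (0.09, adjusted p = 0.991) without that replicate, and 0.03 (0.11, adjusted p = 1) for GPATCH1. The responses differed by −0.22 (0.16, adjusted p = 0.862) with all libraries and by −0.10 (0.12, adjusted p = 0.97) without that replicate.

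Hsph1 (ENSMUSG00000029657.15, chr5:149614287-149636376, minus strand) encodes HSP105, a member of the HSP110 family that exchanges ADP for ATP on HSP70 and holds unfolded proteins. Its level was 130 and 134 CPM in DMSO and 146 and 142 in dTAG-13 in DHX35-dTAG cells, and 147 and 151 in DMSO and 170 and 170 in dTAG-13 in GPATCH1-dTAG cells. In each line both dTAG-13 libraries were above both DMSO libraries, while the treated libraries of DHX35-dTAG cells lay below the untreated ones of GPATCH1-dTAG cells. The log2 fold change was 0.12 (standard error 0.08, unadjusted p = 0.14, adjusted p = 0.715, edgeR) for DHX35 and 0.19 (0.08, interval 0.02 to 0.36, unadjusted p = 0.0318, adjusted p = 1) for GPATCH1, and the responses differed by 0.07 (0.11, adjusted p = 0.901). Over both lines it was 0.16 (0.05, interval 0.04 to 0.27, unadjusted p = 0.0123), a 1.11-fold difference that did not pass the correction over all genes (adjusted p = 0.963). The leave-one-out values of this joint difference ran from 0.15 to 0.18, always above 0. Without DMSO replicate 1 of DHX35-dTAG cells, Hsph1 was at 0.10 (standard error 0.07) for DHX35, 0.19 (0.06) for GPATCH1 and 0.16 (0.04) over both lines. Between the lines in DMSO, GPATCH1-dTAG cells had the higher level by 0.17 (0.08, unadjusted p = 0.0487, adjusted p = 0.385). Hsph1 was thus the chaperone with the smallest unadjusted p in the joint test, and it differed by about as much between the untreated lines as between treatments.

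Hsph1 is shown with its core because the match lies close to the annotated start. The stretch of 30 bases (chr5:149636351-149636380, minus strand) runs from −44 to −15 of the RefSeq start and overlaps an annotated 5′ UTR; capitals mark the core.
Hsph1 promoter: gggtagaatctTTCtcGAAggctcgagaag
The window held 2 more core matches after the start, overlapping each other. The window of Dnajb1 held no match to either core, which says only that these letters are not in those 300 bases.

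HSP90 is the chaperone of kinases, steroid receptors and other nearly folded clients. Hsp90ab1 (ENSMUSG00000023944.14, chr17:45567775-45573271, minus strand) encodes the constitutive HSP90β. It was at 3307 and 3225 CPM in DMSO and 3369 and 3304 in dTAG-13 in DHX35-dTAG cells, and at 3352 and 3389 in DMSO and 3489 and 3439 in dTAG-13 in GPATCH1-dTAG cells. Its coefficient of variation over the 8 libraries, 2.47%, was the lowest among the chaperones. The treated libraries were above the untreated ones in GPATCH1-dTAG cells and overlapped with them in DHX35-dTAG cells. The log2 fold changes were 0.03 (standard error 0.08, adjusted p = 0.912, edgeR) and 0.04 (0.08, adjusted p = 1).

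Hsp90aa1 (ENSMUSG00000021270.13, chr12:110690605-110702728, minus strand) encodes HSP90α, the form that heat stress induces. It was at 2472 and 2377 CPM in DMSO and 2158 and 2637 in dTAG-13 in DHX35-dTAG cells, and at 2472 and 2605 in DMSO and 2553 and 2773 in dTAG-13 in GPATCH1-dTAG cells. The groups overlapped in both lines, and the log2 fold changes were −0.02 (standard error 0.11, adjusted p = 0.969, edgeR) and 0.07 (0.11, adjusted p = 1). Per count of Hsp90ab1 there were 0.641 to 0.806 counts of Hsp90aa1, both extremes in dTAG-13 libraries. Of its windows of 150 bases, 36.2% occurred in other genes, chiefly in Gm12346 (30%), whereas Hsp90ab1 shared none.

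Hspa5 (ENSMUSG00000026864.13, chr2:34771970-34777547, plus strand) encodes BiP, the HSP70 of the ER lumen, which binds new secretory proteins and rises in the unfolded protein response. Its promoter is shown because the letters for that response are known: the ER stress response element is CCAAT, 9 bases and CCACG. It occurred once in this window and in 0.119% of all promoters, searched on both strands. The stretch (chr2:34772020-34772049, plus strand) runs from −70 to −41 of the RefSeq start and overlaps an annotated 5′ UTR; capitals mark the element.
Hspa5 promoter: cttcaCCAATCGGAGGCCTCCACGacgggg
No heat shock core was found in it. Hspa5 was at 671 and 451 CPM in DMSO and 466 and 480 in dTAG-13 in DHX35-dTAG cells. In GPATCH1-dTAG cells it was at 479 and 481 CPM in DMSO and 514 and 502 in dTAG-13. The value of 671 was the only one of the 8 above 514, and it came from DMSO replicate 1. The log2 fold change for DHX35 was −0.25 (standard error 0.15, adjusted p = 0.715, edgeR), and without this library it was 0.07 (0.07, adjusted p = 0.991). For GPATCH1 it was 0.08 (0.15, adjusted p = 1), with both dTAG-13 libraries above both DMSO libraries, and 0.08 (0.055) without DMSO replicate 1 of DHX35-dTAG cells.

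DMSO replicate 1 of DHX35-dTAG cells was thus the lowest library for Hspa8, at 55.1% of the median of the others, and the highest for Hspa5, at 140%. There was 1.58 times as much Hspa8 as Hspa5 by counts in it, against 3.82 to 4.18 times in the other 7 libraries. The 5 chaperones outside the range of the others in this library were Hspa8, Hspa5, Hsph1, Dnajb1 and Hspe1. Of the 4943 genes with a mean of at least 40 CPM, 72.7% were outside, 1.34% lay at least as far below as Hspa8 and 6.05% at least as far above as Hspa5. The share of mitochondrially encoded mRNAs was low in the same library, and its part in these values was not tested. Without it, the coefficient of variation fell from 17.5% to 4.37% for Hspa8 and from 13.8% to 4.35% for Hspa5. In DHX35-dTAG cells all 10 chaperones then had a log2 fold change above 0, from 0.01 for Hsp90aa1 to 0.14 for Dnajb1, with a median of 0.06 that was close to the median of 0.07 with all libraries, and none passed the test. Of all genes, 50.6% were above 0 in that fit, and 55.8% of those with a mean of at least 40 CPM, with medians of 0.002 and 0.012.

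**Figure D3:**
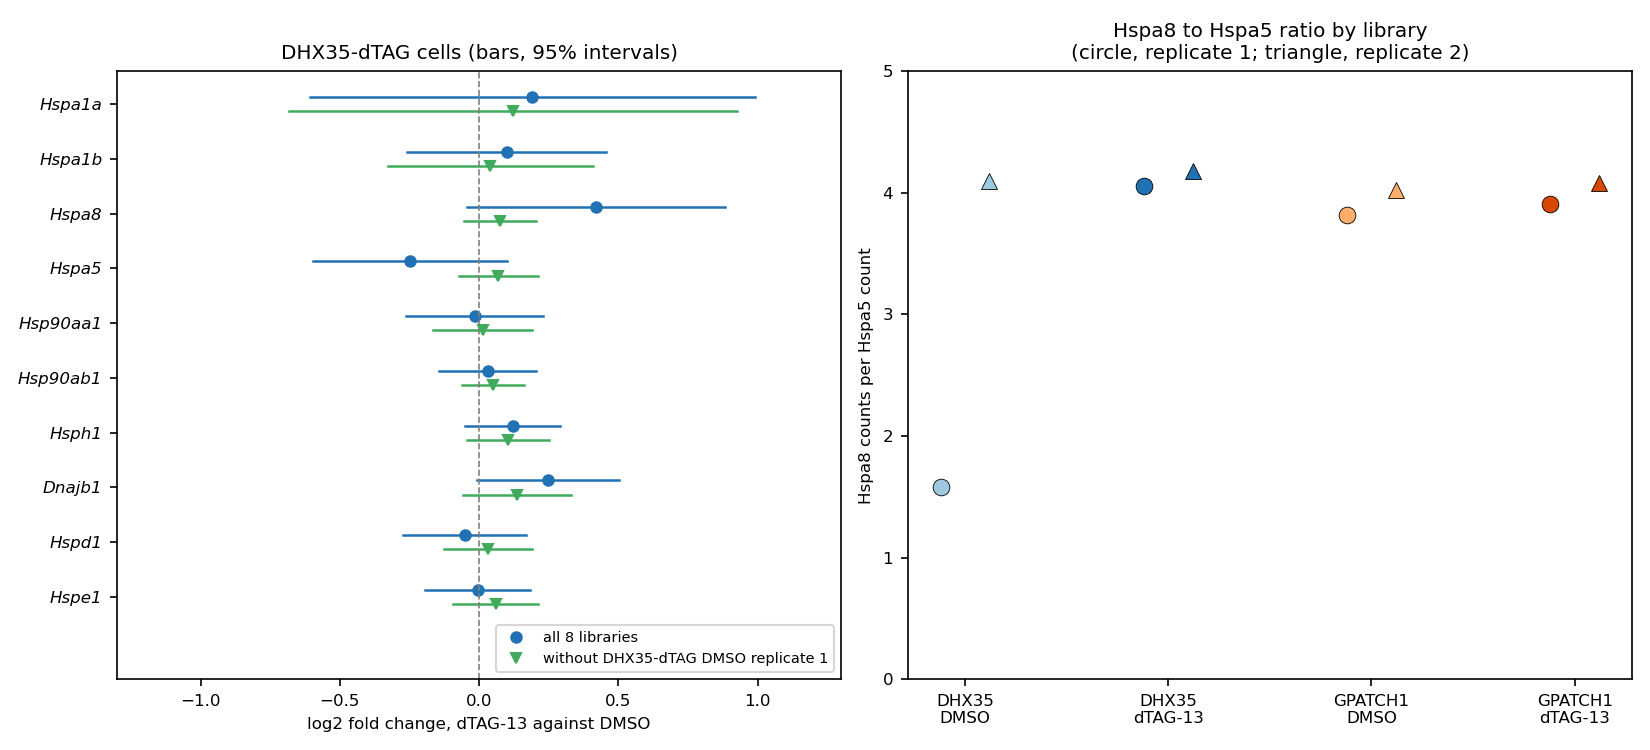
Left, log2 fold change of each chaperone in DHX35-dTAG cells, dTAG-13 against DMSO, with 95% intervals, from all 8 libraries (blue circles) and without DMSO replicate 1 (green triangles). Without replicate 1, replicate 2 is the only DMSO library of that line. Right, the counts of Hspa8 per count of Hspa5 in each library, which is 1.58 in DMSO replicate 1 of DHX35-dTAG cells and 3.82 to 4.18 in the others.

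Hspd1 and Hspe1 encode HSP60 and HSP10, the barrel and lid of the chaperonin that folds proteins in the mitochondrial matrix. Hspd1 (ENSMUSG00000025980.14, chr1:55077835-55088243, minus strand) and Hspe1 (ENSMUSG00000073676.4, chr1:55088132-55091307, plus strand) lie head to head, and their exons overlap by 112 bases on opposite strands. The stretch that carries the heat shock letters is shown because it lies in the promoter windows of both Hspe1 and the second RefSeq start of Hspd1 (chr1:55088053-55088082, plus strand, −95 to −66 of the RefSeq start of Hspe1, within an annotated 5′ UTR of Hspd1); capitals mark 3 overlapping cores that form 4 alternating repeats.
Hspe1 and Hspd1 promoter: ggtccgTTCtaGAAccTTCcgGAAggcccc
Among the chaperones with a promoter in the table, Hspe1, Hspd1 and Hsph1 held 3 cores, Hspa1a and Hspa1b held 1, and Hspa5 and Dnajb1 held none. The window of the first RefSeq start of Hspd1 held 0.

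Hspd1 was at 944 and 844 CPM in DMSO and 801 and 924 in dTAG-13 in DHX35-dTAG cells, and at 905 and 911 in DMSO and 929 and 958 in dTAG-13 in GPATCH1-dTAG cells. The groups overlapped in DHX35-dTAG cells, with a log2 fold change of −0.05 (standard error 0.10, adjusted p = 0.876, edgeR), and did not in GPATCH1-dTAG cells, with 0.055 (0.097, adjusted p = 1). Hspe1 was at 212.5 and 195 CPM in DMSO and 198 and 208 in dTAG-13 in DHX35-dTAG cells, and at 202 and 200 in DMSO and 198 and 211 in dTAG-13 in GPATCH1-dTAG cells. Its groups overlapped in both lines, and the log2 fold changes were −0.005 (0.083, adjusted p = 0.99, edgeR) and 0.02 (0.08, adjusted p = 1). There were 4.04 to 4.68 counts of Hspd1 per count of Hspe1. Of the Hspd1 windows, 18.6% also occurred in the pseudogene Hspd1-ps3, which was itself given 114 to 166 counts per library.

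**Figure D4:**
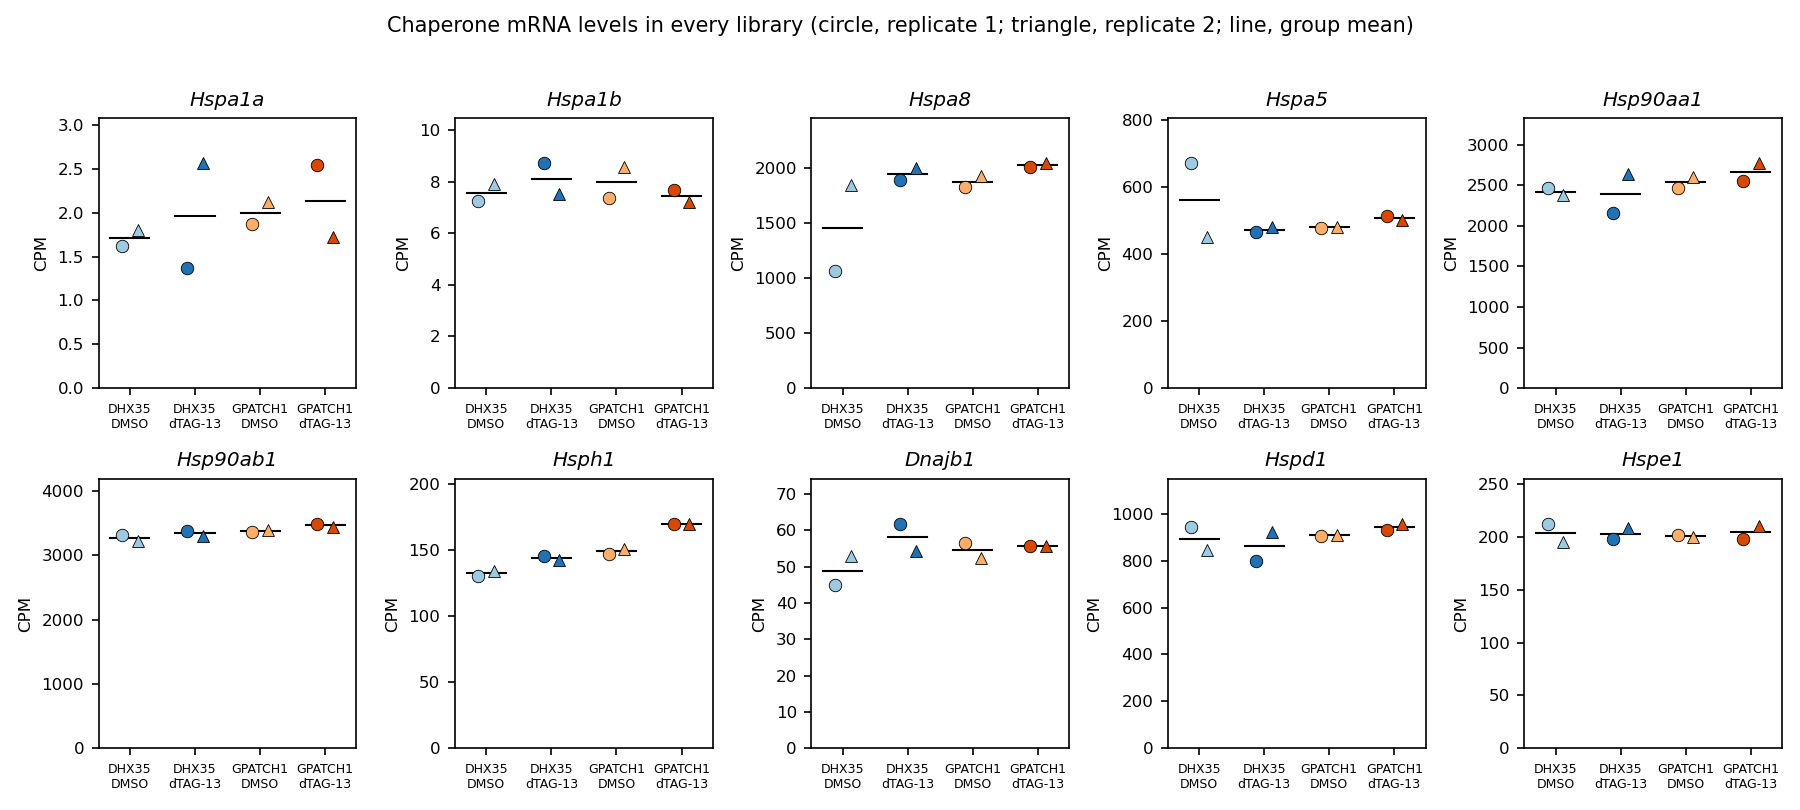
CPM of each chaperone in every library by group, with replicate 1 as a circle, replicate 2 as a triangle and the mean of the 2 as a line; each vertical axis starts at 0. Hspa8 (1063) and Hspa5 (671) are far from the rest in DMSO replicate 1 of DHX35-dTAG cells, and Hsph1 has its lowest value in that library (130) and its highest in the dTAG-13 libraries of GPATCH1-dTAG cells (170).

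Complete separation of the groups was read against the same count over all genes. In DHX35-dTAG cells, 3 of the 10 chaperones (Hspa8, Hsph1 and Dnajb1) had both dTAG-13 libraries above both DMSO libraries and 0 had both below, where 14.6% and 14.1% of all genes did so. In GPATCH1-dTAG cells these numbers were 5 (Hspa8, Hspa5, Hsp90ab1, Hsph1 and Hspd1) and 0, against 21.5% and 20.3%. Over both lines no chaperone had all 4 dTAG-13 libraries above, or all 4 below, all 4 DMSO libraries, which 1.03% and 1.22% of genes had. Hspa8 and Hsph1 were the 2 members separated upwards within each line and 0 were separated downwards, where 3.15% and 2.82% of all genes were.

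The members did not move as a block from library to library. As a description over 8 libraries that share groups and scaling, the log2 CPM of Hsp90ab1 and Hsph1 had a Pearson r of 0.91, Hsp90aa1 and Hspd1 0.90, Hspa8 and Dnajb1 0.80, Hspa8 and Hspa5 −0.88, and Hspa1a and Hspa1b −0.20. Over the 7 libraries without DMSO replicate 1 of DHX35-dTAG cells, the r of Hspa8 and Hspa5 turned to 0.75 and that of Hspa8 and Dnajb1 to −0.13, while the other 3 pairs, in the order given, had 0.95, 0.97 and −0.35. Of all 45 pairs of chaperones, 10 changed sign without that library. For 4 of the heat-inducible genes, Hspa1a, Hspa1b, Dnajb1 and Hsph1, the mean centred log2 CPM was lowest in DMSO replicate 1 of DHX35-dTAG cells, at −0.19, and highest in dTAG-13 replicate 1 of GPATCH1-dTAG cells, at 0.15. Hsp90aa1, Hspd1 and Hspe1, which heat also induces, were not part of this mean, and in the former library they lay −0.05, 0.05 and 0.09 from the median of the others on the log2 scale. Among all other genes with a mean of at least 5 CPM, the 5 with the profile most like this mean over the 8 libraries were Wars2 (r = 0.95), Slc5a1 (0.94), Arl15 (0.94), Ccn1 (0.94) and Pinx1 (0.93). Over the 7 libraries these 5 had an r of 0.84 to 0.94. They were picked for the highest r over libraries that include these 7, so a high r follows from the choice. Wars2, for example, was at 4.88 CPM in DMSO replicate 1 of DHX35-dTAG cells and 7.93 in dTAG-13 replicate 1 of GPATCH1-dTAG cells.

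The other genes of the folding machinery were examined as lists. None of their genes passed an adjusted p of 0.05 in any of the 5 comparisons (edgeR), so each list is described by its direction and median. The genes named are those with the smallest unadjusted p in each list. Over all genes, 48.5% were above 0 for DHX35 and 50.8% for GPATCH1. Of genes with a mean of at least 40 CPM these shares were 56% and 64.1%, with medians of 0.023 and 0.025. Without DMSO replicate 1 of DHX35-dTAG cells the shares for DHX35 were 50.6% and 55.8%. Hsf1, the master regulator of the heat shock response, was at 56.4 to 62.8 CPM in all libraries, with log2 fold changes of 0.01 (standard error 0.09) and 0.04 (0.09). Of the HSF1 family, Hsf1, Hsf2 and Hsbp1 could be tested and Hsf4, with 1 to 11 counts, could not. Hsf2 was at 49.1 and 48.3 CPM in DMSO and 40.4 and 48.4 in dTAG-13 in DHX35-dTAG cells (−0.13, unadjusted p = 0.264, adjusted p = 0.734, edgeR).

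Of 14 other HSF1-induced genes, 10 had a log2 fold change above 0 after DHX35 depletion (median 0.10) and 8 after GPATCH1 depletion (median 0.02). Bag3, an exchange factor that steers HSP70 clients to autophagy, was at 56.8 and 58.0 CPM in DMSO and 68.3 and 68.2 in dTAG-13 in DHX35-dTAG cells (0.25, standard error 0.08, unadjusted p = 0.0132, adjusted p = 0.715, edgeR). In GPATCH1-dTAG cells it was at 63.1 and 64.4 CPM in DMSO and 59.3 and 61.3 in dTAG-13, the opposite order, and the responses differed by −0.33 (0.12, unadjusted p = 0.0183, adjusted p = 0.862). Serpinh1, the collagen chaperone HSP47, was at 22.5 and 21.2 CPM in DMSO and 29.1 and 25.3 in dTAG-13 in GPATCH1-dTAG cells (0.31, standard error 0.12, unadjusted p = 0.0244, adjusted p = 1).

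The 22 further HSP70 family genes and partners were split, with 10 above 0 for DHX35 (median −0.05) and 14 for GPATCH1 (median 0.05). Without DMSO replicate 1 of DHX35-dTAG cells, 17 of the 22 were above 0 for DHX35, with a median of 0.04. Bag4, another HSP70 exchange factor, was at 63.8 and 73.7 CPM in DMSO and 77.6 and 81.5 in dTAG-13 in DHX35-dTAG cells (0.21, unadjusted p = 0.0587, adjusted p = 0.715, edgeR). The value of 63.8 was that of DMSO replicate 1, without which the log2 fold change of Bag4 was 0.11. Dnajb4, an HSP40, was at 12.2 and 11.8 CPM in DMSO and 7.50 and 10.2 in dTAG-13 in GPATCH1-dTAG cells (−0.44, unadjusted p = 0.0476, adjusted p = 1). Its log2 fold change for DHX35 was 0.10 (unadjusted p = 0.62), and 0.01 without DMSO replicate 1 of that line. Neither Bag4 nor Dnajb4 passed the correction.

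For 12 HSP90 partners, 11 were below 0 after DHX35 depletion (median −0.12) and 11 above 0 after GPATCH1 depletion (median 0.05). Without DMSO replicate 1 of DHX35-dTAG cells, 5 of the 12 were below 0 after DHX35 depletion, with a median of 0.04. Unc45a, a co-chaperone of HSP90 in myosin folding, was at 76.5 CPM in that library and 46.8 to 55.3 in the others. Aarsd1 was at 3.56 and 3.45 CPM in DMSO and 6.82 and 4.75 in dTAG-13 in GPATCH1-dTAG cells (0.73, standard error 0.23, unadjusted p = 0.0106, adjusted p = 1, edgeR). In DHX35-dTAG cells Aarsd1 was at 4.21 and 3.54 CPM in DMSO and 3.08 and 3.54 in dTAG-13 (−0.22, standard error 0.24). The value of 4.21 was that of DMSO replicate 1, without which the log2 fold change was −0.10. With all libraries the responses differed by 0.95 (0.33, unadjusted p = 0.0185, adjusted p = 0.862, edgeR).

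The 14 genes of the cytosolic chaperonin TRiC, which folds actin and tubulin, and of its partner prefoldin gave the same picture. With all libraries 11 were below 0 for DHX35 (median −0.10) and 13 above 0 for GPATCH1 (median 0.07), and without DMSO replicate 1 of DHX35-dTAG cells 11 were above 0 for DHX35 (median 0.03). Cct3, a TRiC subunit, was at 688 CPM in that library against 579 to 665 in the others. In GPATCH1-dTAG cells Cct3 was at 590 and 579 CPM in DMSO and 665 and 634 in dTAG-13 (0.15, unadjusted p = 0.124, edgeR). Pfdn2, a prefoldin subunit, was at 21.0 and 22.8 CPM in DMSO and 25.6 and 28.6 in dTAG-13 in DHX35-dTAG cells (0.31, unadjusted p = 0.0258, adjusted p = 0.715, edgeR). Vbp1, another prefoldin subunit, named after its values were seen, went the other way, at 89.9 and 66.9 CPM in DMSO and 54.7 and 68.0 in dTAG-13 (−0.35, unadjusted p = 0.0432, adjusted p = 0.715), and at −0.12 without DMSO replicate 1 (unadjusted p = 0.233). The sign of the medians of TRiC and prefoldin, of the HSP90 partners and of the HSP70 family and partners after DHX35 depletion therefore rested on 1 library.

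Of 18 ER chaperones and genes of the unfolded protein response, 9 were above 0 for DHX35 (median −0.004) and 15 for GPATCH1 (median 0.07). Without the library that stood apart, 14 were above 0 for DHX35 (median 0.06). Ern1, the sensor IRE1α, was at 18.0 and 17.8 CPM in DMSO and 14.9 and 14.4 in dTAG-13 in GPATCH1-dTAG cells (−0.29, standard error 0.11, unadjusted p = 0.0268, adjusted p = 1, edgeR). Atf6, the second sensor, was at 51.1 and 60.0 CPM in DMSO and 68.2 and 63.6 in dTAG-13 in DHX35-dTAG cells (0.25, unadjusted p = 0.0355, adjusted p = 0.715), with the lowest value again in the library that stood apart, and its log2 fold change was 0.14 (unadjusted p = 0.108) without it. Creld2, an ER protein induced by ER stress and named after its values were seen, had a similar p and the opposite sign, at 76.9 and 40.8 CPM in DMSO and 39.4 and 39.0 in dTAG-13 (−0.58, standard error 0.24, unadjusted p = 0.0362, adjusted p = 0.715). Without that library, which held the value of 76.9, Creld2 was at −0.05 (unadjusted p = 0.572).

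Of 10 further mitochondrial chaperones and proteases, 5 were above 0 for DHX35 (median 0.01) and 8 for GPATCH1 (median 0.04), with 9 above 0 for DHX35 (median 0.06) without that library. Dnajc19, a co-chaperone at the import motor of the inner membrane, was at 18.3 and 17.4 CPM in DMSO and 22.9 and 21.8 in dTAG-13 in DHX35-dTAG cells (0.33, standard error 0.12, unadjusted p = 0.0257, adjusted p = 0.715, edgeR). In GPATCH1-dTAG cells it was at 18.9 and 22.2 CPM in DMSO and 17.7 and 20 in dTAG-13 (−0.12, standard error 0.12), and the responses differed by −0.45 (unadjusted p = 0.0297, adjusted p = 0.862). Grpel1, the exchange factor of the mitochondrial HSP70, was at 81.7 and 81.6 CPM in DMSO and 91.9 and 87.8 in dTAG-13 in GPATCH1-dTAG cells (0.14, unadjusted p = 0.148, adjusted p = 1).

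**Figure D5:**
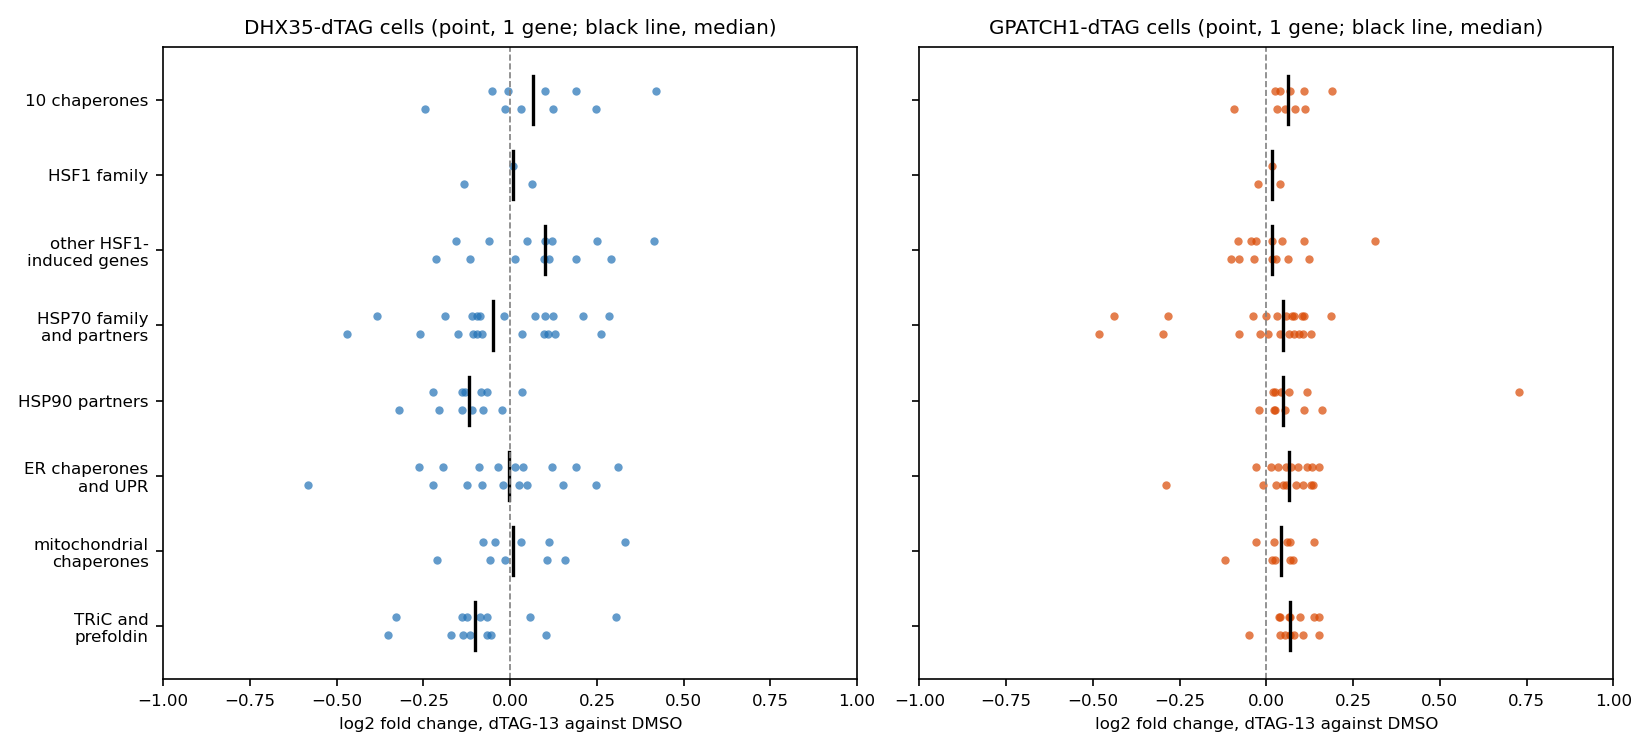
Log2 fold change in dTAG-13 against DMSO of every tested gene of the 10 chaperones and 7 related lists, in DHX35-dTAG cells (left) and GPATCH1-dTAG cells (right); each point is 1 gene and the black line is the median. For DHX35 the medians of HSP90 partners (−0.12), TRiC and prefoldin (−0.10), HSP70 family and partners (−0.05) and ER genes (−0.004) lie below 0, each of which is above 0 without DMSO replicate 1, and for GPATCH1 all 8 medians lie between 0 and 0.1.

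Between the untreated lines, 8 of the 10 chaperones had a higher level in GPATCH1-dTAG cells, with a median log2 difference of 0.07 beside −0.01 over all genes, of which 48.7% were higher. Hsph1 (0.17), Hsp90ab1 (0.05, standard error 0.08) and Hspa1a (0.21, standard error 0.35) had both GPATCH1-dTAG libraries above both DHX35-dTAG libraries in DMSO, and 0 chaperones had both below, where 21.8% and 21.3% of all genes did so. Hspa8 differed by 0.37 (0.20, adjusted p = 0.44, edgeR) with all libraries and by 0.02 (0.06, adjusted p = 0.954) without DMSO replicate 1 of DHX35-dTAG cells, and Hspa5 by −0.23 (0.15, adjusted p = 0.509) and 0.09 (0.07, adjusted p = 0.726). The line comparison has the same DMSO libraries as both depletions, so the directions of these comparisons are not independent.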

How the data were processed

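Total RNA of 8 libraries of mESCs had been depleted of ribosomal RNA, mixed with human DLD-1 RNA and made into stranded libraries. Per the methods and the submitters' processing notes, the authors trimmed reads with Trim Galore 0.6.6 and aligned them with STAR 2.7.5c to mm10 and hg19. What the authors deposited is a table of raw counts for each library; the counting program, annotation and strand setting are not given in the sources used here, so overlapping and near-identical genes are uncertain, and human reads were not used here.

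Groups came from the sample labels. Differences in counts were fitted in edgeR 4.0.16 under R 4.3.3 (TMM, filterByExpr on the 4 groups, glmQLFit and glmQLFTest, 1 term per group, all 8 libraries, Benjamini-Hochberg, threshold 0.05). The effect over both lines used a model of line and treatment. Standard errors were derived from each log2 fold change and its F statistic, and intervals are 95%. Total counts of 12014203 to 14994173 gave a common dispersion of 0.0125, a coefficient of variation of 11.2% between replicates. Replicates were not duplicates (chi-square per gene 4.93 to 121). Log2 CPM used a prior count of 2. Gene positions and transcripts came from GENCODE M21 (GRCm38), promoters from RefSeq. Windows of 150 bases, the length of the paired reads, were compared between annotated transcripts on the sense strand, and promoter motifs were searched on both.

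The chaperones and lists were chosen with earlier results of these data known. Named list genes were those with the smallest unadjusted p per list and depletion. Alternatives were DESeq2 1.42.0, its size factors in edgeR, no filter, a minimum of 10 counts per library, a fit restricted to the groups compared, a replicate block, omission of the 2 most counted genes, Hspa1a and Hspa1b summed, and each library left out. The procedure was run on simulated counts in which no library stood apart. That run does not show how it handles the library that stood apart here.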

Additional observations from a re-analysis of the deposited data

Results flagged for a closer look

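Among the 10 chaperones, 2 had a library far from the other 7, by a gap to the nearest library above Dixon's limit for 8 libraries, taken as a share of the whole range (it flags about 1 in 20 sets by chance; here the 8 libraries span 4 groups). The same gap was found for 19.3% of all 16371 genes tested, 17.3% with DMSO replicate 1 of DHX35-dTAG cells as the distant library, and for 29% and 27.6% of the 4943 genes with a mean of at least 40 CPM, so 2 of 10 is no result about chaperones. Hspa8 was at 1063 CPM in DMSO replicate 1 of DHX35-dTAG cells, with the nearest library at 1828 and a gap of 0.779 of the range. Hspa5 was at 671.4 CPM in the same library, with the nearest at 514.1 and a gap of 0.715. No chaperone moved in opposite directions in every library of the 2 lines.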

How the results depend on the processing

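With 2 libraries per group, the spread is taken over all genes and groups, and chaperones with few counts, Hspa1a above all, could change by up to the widest interval given without being called. Of 770 alternative values for single chaperones, 706 kept their direction and their side of the threshold, 51 changed sign and 13 passed the threshold; 46 of the sign changes came from leaving out a library. A lone library left in a group was assumed to vary like the others. Without DHX35_DMSO replicate 2, which leaves replicate 1 as the sole control, 4949 of 17175 genes passed the test for DHX35, 3592 for the difference and 5887 between the lines, among them for the first and second Hspa8 (0.884, adjusted p = 1.5e-08, and −0.775), Hspa5 (−0.496 and 0.578) and Dnajb1 (0.384 and −0.354, edgeR); the cause was not tested. Over the leave-one-out fits the number of chaperones called was 0 to 3 for DHX35, 0 to 3 for the difference and 0 to 4 between the lines, and 0 in each fit for GPATCH1 and for both lines. Their median ran from 0.006 to 0.087 for DHX35, 0.041 to 0.067 for GPATCH1, −0.033 to 0.050 for the difference, 0.011 to 0.063 for both lines and 0.040 to 0.107 between the lines. The lists of partners, their named genes and the correlations without DHX35_DMSO replicate 1, and the upper limits with single libraries left out, were added after seeing the data.

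Without an expression filter, 1 chaperone, Hspa8, was called for DHX35 (0.424, adjusted p = 0.000589), for both lines (0.272, adjusted p = 0.00654) and between the lines (0.379, adjusted p = 0.00202, edgeR), with 345, 80 and 986 of 32642 genes called; the cause was not tested. With Hspa1a and Hspa1b summed, the median for DHX35 was 0.031, over 9 features in place of 10. Leaving out single libraries turned the sign of these log2 fold changes, with ranges for DHX35 of −0.496 to 0.069 (Hspa5), −0.163 to 0.121 (Hsp90aa1), −0.155 to 0.048 (Hspd1), −0.056 to 0.059 (Hspe1), −0.012 to 0.206 (Hspa1b) and −0.321 to 0.577 (Hspa1a). For GPATCH1 they were −0.203 to 0.009 (Hspa1b), −0.027 to 0.090 (Dnajb1), −0.201 to 0.351 (Hspa1a) and −0.020 to 0.069 (Hspe1). For the difference between the responses they were −0.469 to 0.429 (Hspa1a), −0.775 to 0.035 (Hspa8), −0.013 to 0.019 (Hsp90ab1), −0.034 to 0.081 (Hspe1) and −0.056 to 0.228 (Hsp90aa1). For both lines they were −0.064 to 0.064 (Hspa1b), −0.154 to 0.078 (Hspa5), −0.031 to 0.050 (Hspd1), −0.008 to 0.039 (Hspe1), −0.039 to 0.293 (Hspa1a) and −0.025 to 0.088 (Hsp90aa1). Between the lines they were −0.475 to 0.089 (Hspa5), −0.070 to 0.045 (Hspe1), −0.046 to 0.106 (Hspd1) and −0.032 to 0.184 (Hspa1b). Values near 0 also turned for Hspe1 for DHX35 without a filter (0.004), and for both lines for Hspa1b (−0.002) and Hspd1 (−0.004) under a minimum of 10 counts per library and for Hspa1b (−0.001) and Hspd1 (−0.002) without the 2 genes with the highest counts.

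The groups share replicate numbers, and the replicate differences of the groups correlated by 0.0372 to 0.23 over genes, not over 0.1 in every pair. The main fit therefore did not pair libraries by number. Whether a number stands for a shared batch cannot be told from these correlations. With a replicate block no chaperone was called in any comparison, and the medians were 0.065, 0.062, 0.019, 0.029 and 0.065 in the order used above. The number of all genes called was then 0, 0, 2, 0 and 16, against 0, 0, 0, 0 and 15 without the block.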
